A study of Mus musculus with 48 samples.

Results

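Gene expression in the hippocampus of wild-type (WT) mice was compared between postnatal week (PWK) 14 and PWK 7. The comparison used 8 of the 48 bulk RNA-seq libraries of the series, namely the 4 WT hippocampus libraries of PWK 14 and the 4 of PWK 7, which were chosen by the age, region and genotype in their labels. All mice were of the C57BL/6N strain, and the WT mice were littermates of Cyfip2 heterozygotes, which lack a functional copy of a gene for a subunit of the actin-regulating WAVE complex. WT mice carried no modified allele and received no treatment, and each library came from the hippocampi of both hemispheres of 1 mouse, so replicates are separate animals. The same age step in the Cyfip2 heterozygous hippocampus (8 libraries) and in the WT frontal cortex (8 libraries) was used for comparison, and the 4 WT hippocampus libraries of PWK 1 give the earlier level of each gene.

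Both ages lie after the main wave of myelination, in which oligodendrocytes wrap axons with a lipid-rich membrane, so the step runs from the young adult to the mature adult hippocampus. Oligodendrocytes arise from dividing precursors, pass through a short-lived premyelinating state, and then make myelin proteins and the enzymes of galactolipid synthesis at high rates while the sheath grows. The hippocampus also keeps a zone in the dentate gyrus where granule neurons are born in the adult, at a rate that is known to decline with age.

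The upstream sequences of 4 myelin-related genes are shown because Ugt8a, Mobp and Mag fell and Il33 rose at PWK 14. They are the 250 bases before the start of Ugt8a (chr3:125938653-125938902, minus strand), Mobp (chr9:120149492-120149741, plus strand), Mag (chr7:30914864-30915113, minus strand) and Il33 (chr19:29924863-29925112, plus strand), from RefSeq on build GRCm38.p6, each written 5′ to 3′ on the strand of the gene. Capitals mark ACAAAG or ACAATG on either strand, the core letters to which SOX factors such as SOX10, a master regulator of oligodendrocytes, are known to bind.
Ugt8a: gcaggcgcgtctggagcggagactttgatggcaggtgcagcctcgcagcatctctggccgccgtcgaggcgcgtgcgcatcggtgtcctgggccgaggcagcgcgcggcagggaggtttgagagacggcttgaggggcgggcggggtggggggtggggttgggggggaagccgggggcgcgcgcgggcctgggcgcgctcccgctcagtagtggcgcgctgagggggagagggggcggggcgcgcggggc
Mobp: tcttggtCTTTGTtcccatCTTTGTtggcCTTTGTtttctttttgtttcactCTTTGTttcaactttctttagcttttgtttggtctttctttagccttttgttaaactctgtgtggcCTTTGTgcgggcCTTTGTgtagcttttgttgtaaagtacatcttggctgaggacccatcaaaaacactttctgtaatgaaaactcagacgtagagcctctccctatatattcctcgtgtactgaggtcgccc
Mag: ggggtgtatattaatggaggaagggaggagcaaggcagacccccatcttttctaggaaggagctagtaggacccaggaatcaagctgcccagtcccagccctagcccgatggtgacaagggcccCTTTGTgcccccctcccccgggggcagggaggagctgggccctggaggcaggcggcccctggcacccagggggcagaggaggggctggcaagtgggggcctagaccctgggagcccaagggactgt
Il33: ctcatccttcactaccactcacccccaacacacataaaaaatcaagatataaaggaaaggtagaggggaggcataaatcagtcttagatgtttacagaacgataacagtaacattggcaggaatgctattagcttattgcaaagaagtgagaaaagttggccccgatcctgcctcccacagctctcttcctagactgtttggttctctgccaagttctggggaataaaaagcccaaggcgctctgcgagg
Mobp held 6 such matches and Mag 1, all ACAAAG on the opposite strand, while Ugt8a and Il33 held none in this window. The Ugt8a stretch was 76.8% G and C, against 40.8% for Mobp, 66.0% for Mag and 45.2% for Il33. Of the 12219 genes tested with such a window, 17.1% held at least 1 match, as did 3 of the 8 windows of the myelin genes lower at PWK 14 and 6 of the 11 of the myelin genes that were not called lower. A match describes letters in a window and is not evidence of binding.

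The totals of the normalized counts differed little between libraries, being scaled, and are no depth. The steps between the lowest values give depth estimates of 35.8 to 36.2 M (M, 1e6 counts) for the libraries of PWK 7 and 26.9 to 33.9 M for those of PWK 14, and only 43.2% to 80.7% of those values lay within 0.1 of a whole multiple, so depth is known roughly. Libraries of PWK 7 correlated with each other by 0.989 to 0.992 on the log2 scale, those of PWK 14 by 0.980 to 0.987, and libraries of different ages by 0.983 to 0.988. The summed level of 11 dentate granule cell markers was 16260 to 18530 in the WT hippocampus and 7247 to 9139 in the WT cortex, and that of 8 CA3 markers was 9806 to 12060 and 4669 to 5337, so the granule cell and CA3 markers were higher in the libraries labelled hippocampus. The sums of the CA1 markers overlapped between hippocampus and cortex (20920 to 24630 and 16130 to 20950). Those of the CA2 markers lay close together (8738 to 9702 and 7403 to 8519). The Y-linked gene Ddx3y was high in all 8 libraries of the age step.

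Of 16922 genes tested, 84 were differentially expressed genes (DEGs, adjusted p under 0.05), of which 12 were higher (0.0709% of the genes tested) and 72 lower (0.425%) at PWK 14. At an unadjusted p under 0.05 the counts were 1248 higher and 1393 lower. The 4 libraries of PWK 14 lay wholly above those of PWK 7 for 849 genes (5.02%) and wholly below for 852 (5.03%), and all 84 DEGs were among these. Of the DEGs, 77 were protein coding, 39 were lower by more than 0.5 on the log2 scale, and 4 were higher by as much. The largest group among the 72 lower DEGs that the gene lists name was the oligodendrocyte lineage, with 16 genes. The number of DEGs rested on single libraries. It was 42 without PWK 14 replicate 1, 19 without PWK 7 replicate 1, 19 without replicate 2 and 16 without replicate 3, and it was 111 without PWK 7 replicate 4. Of the 84, 14 were called in each of the 8 fits that left out a library, among them Ugt8a, Cldn11, Mal, Tspan2, Mobp, Mbp, Mag, Gpr17, Adamts4, Gsn, Sema4d and the antisense RNA 9630013A20Rik among the lower, and Il33 among the higher.

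**Figure D1:**
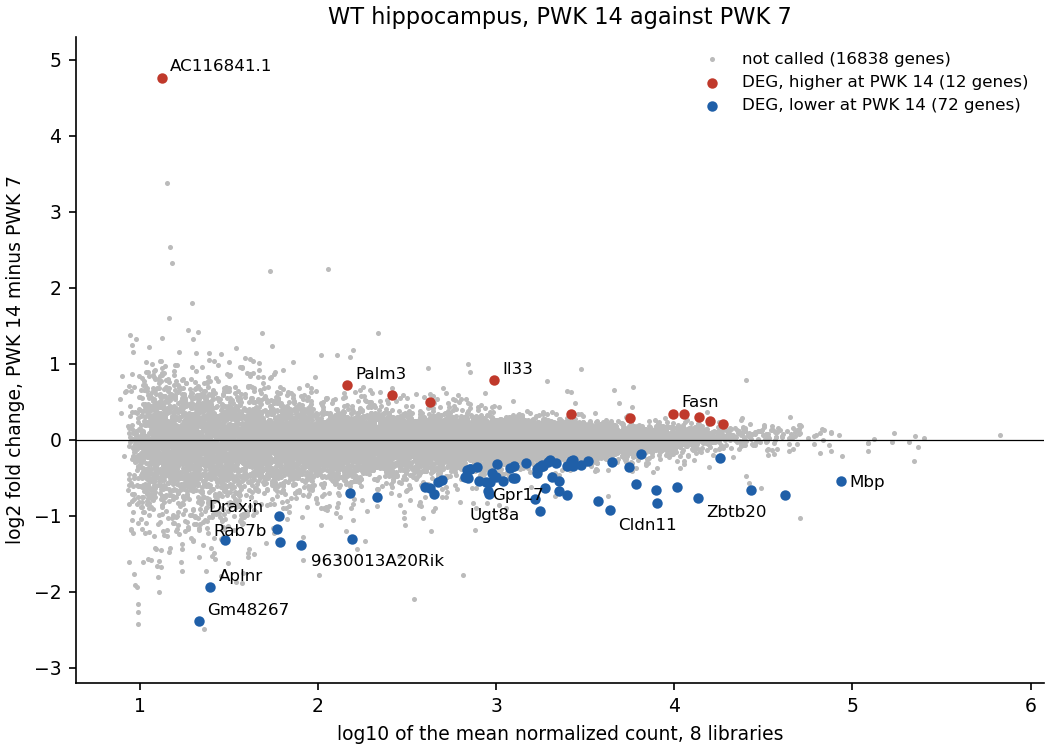
Log2 fold change between PWK 14 and PWK 7 in the WT hippocampus (vertical axis) against log10 of the mean normalized count of the 8 libraries (horizontal axis), with 1 point per gene tested. The 72 lower DEGs (blue) reach from low levels up to Mbp, and outnumber the 12 higher DEGs (red); the height of AC116841.1, listed at 0 in all PWK 7 libraries, depends on the pseudocount and is no fold change.

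Of 28 genes of mature oligodendrocytes and myelin, all tested, 12 fell at PWK 14, beside 0.425% of all genes tested, 1 rose and 15 were not called, and the median log2 fold change was -0.26 beside -0.0037 over all genes tested. The members of this list, as of the other lists, were chosen with earlier results of these data known. The share called is thus no independent evidence. The levels of the 12 at PWK 14 were 52.1% to 68.7% of those at PWK 7. Fewer oligodendrocytes and less RNA per cell cannot be told apart in bulk tissue.

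Ugt8a, the enzyme that makes galactosylceramide, the main glycolipid of myelin, had the smallest p of all genes. Its normalized counts were 2464, 2331, 2268 and 2275 at PWK 7 and 1309, 1326, 1137 and 1093 at PWK 14. The lowest library of PWK 7 thus lay far above the highest of PWK 14, and the log2 fold change was -0.94 ± 0.07 (SE, adjusted p = 0.000397). Fa2h, which hydroxylates the fatty acids of the same lipids, went from 1304 ± 63.7 to 891.6 ± 74.0 (mean ± SD, n = 4), a log2 fold change of -0.55.

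Among structural genes, Cldn11, the tight junction claudin of the sheath, had normalized counts of 5982, 5337, 5761 and 5714 at PWK 7 and 3209, 3300, 2625 and 2951 at PWK 14 (log2 fold change -0.92 ± 0.07, adjusted p = 0.000397). Mal, a raft protein that sorts myelin components, went from 10560, 9474, 10790 and 10300 to 6026, 6138, 4960 and 5902 (-0.84 ± 0.07, adjusted p = 0.000665). The ages were fully separate for both genes, and replicate 3 was the lowest library of PWK 14 in each. Tspan2, a tetraspanin of the sheath, was at 57.2% of its level at PWK 7 (-0.81 ± 0.07, adjusted p = 0.000976).

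Abundant myelin mRNAs moved in the same direction. Mbp, which compacts the sheath from its cytoplasmic side, went from 104300, 96280, 108900 and 100700 to 73800, 76720, 67110 and 64310 normalized counts (-0.54 ± 0.06, adjusted p = 0.00616). Replicates 3 and 4 held the lower values of PWK 14, and no library of PWK 14 reached the range of PWK 7. Mobp, which lies in the compact sheath, changed by -0.66 ± 0.07 (adjusted p = 0.00179).

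Mag, an adhesion protein facing the axon, went from 7522, 7027, 7726 and 7007 to 5394, 5233, 4375 and 4527 normalized counts (-0.59 ± 0.07, adjusted p = 0.00672). Cnp, a phosphodiesterase of the cytoplasmic channels, fell by 0.62, and Mog, on the outer face of the sheath, by 0.79 on the log2 scale. Calls of Fa2h, Cnp and Mog rested on single libraries of PWK 7. Without replicate 1 or without replicate 3 none of the 3 was called, and without replicate 2 Mog was not, with adjusted p of up to 0.0848. The list then held 8, 8 and 10 lower genes, and 12 without any of the other libraries.

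**Figure D2:**
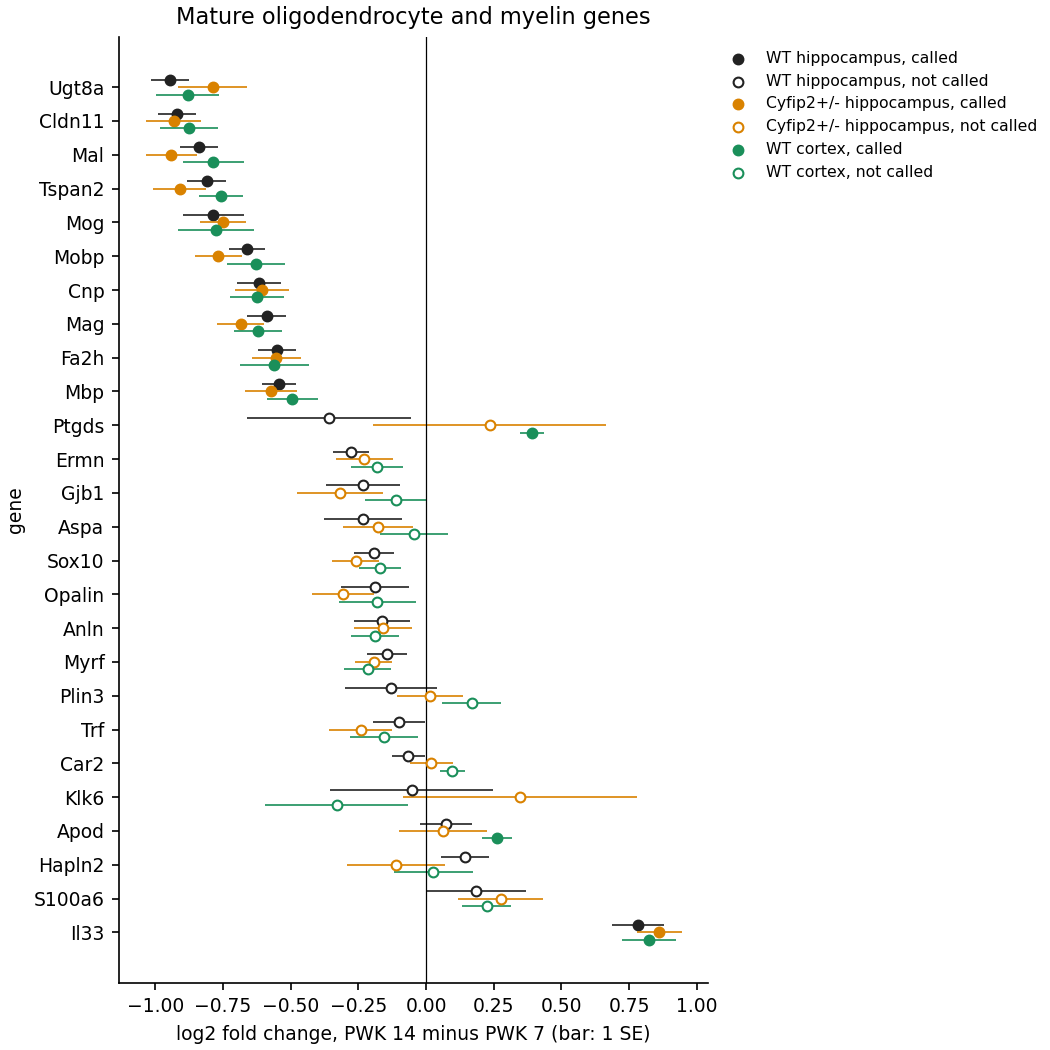
Log2 fold change between PWK 14 and PWK 7 (horizontal axis, bars of 1 SE) for 26 genes of the mature oligodendrocyte and myelin list, in the WT hippocampus (black), the Cyfip2 heterozygous hippocampus (orange) and the WT cortex (green), with filled points for adjusted p under 0.05. The 10 genes from Ugt8a to Mbp lie between -0.94 and -0.54 in the WT hippocampus, Il33 lies at 0.78, and the genes between are not called there.

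The 15 members that did not pass the test had log2 fold changes from -0.36 (Ptgds) to 0.19 (S100a6), 12 of them below 0. Ermn, a late myelin protein that binds actin, went from 1816, 1778, 1962 and 1924 to 1609, 1631, 1590 and 1353 normalized counts, which did not overlap (log2 fold change -0.28 ± 0.07, adjusted p = 0.10). The transcription factors Sox10 and Myrf, which switch on myelin genes, had log2 fold changes of -0.19 ± 0.07 (adjusted p = 0.244) and -0.15 ± 0.07 (adjusted p = 0.374), and their groups overlapped. Trf, the iron carrier transferrin, had -0.10 ± 0.10, Car2, a carbonic anhydrase, -0.07 ± 0.06, and Apod, an apolipoprotein, 0.07 ± 0.10. Trf was at 93.5%, Car2 at 95.7% and Apod at 106% of the level at PWK 7. These 3 were among the members with estimates nearest to 0, and whether they differed from the genes that fell was not tested.

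Il33, a cytokine that is held in the nucleus of oligodendrocytes and astrocytes, was the only member of the list that rose. Its normalized counts were 648.5, 612.2, 771.6 and 840.7 at PWK 7 and 1277, 1270, 1194 and 1172 at PWK 14 (log2 fold change 0.78 ± 0.10, adjusted p = 0.00758). Every library of PWK 14 lay above the highest of PWK 7, where replicates 3 and 4 were higher than the other two. At PWK 1 the level was 183.4 to 243.2. Over the 3 ages the level was thus highest at PWK 14, whereas Ugt8a, at 405.1 to 1203 at PWK 1, and Mal, at 99.3 to 399.8, had their highest level at PWK 7.

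**Figure D3:**
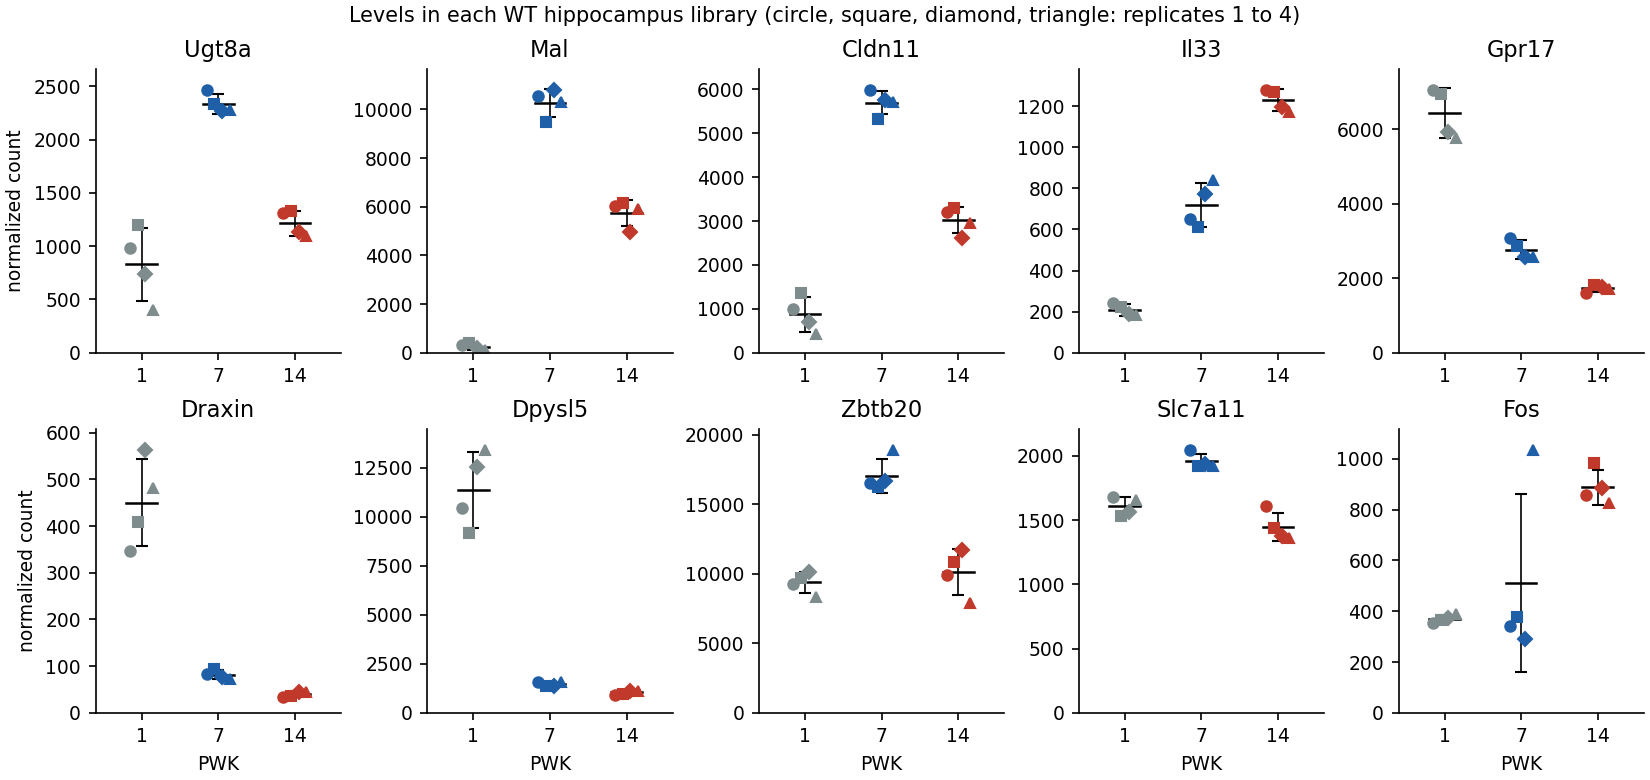
Normalized counts (vertical axes from 0, scale differing by gene) of 10 genes in each WT hippocampus library at PWK 1, 7 and 14 (horizontal axes), with the mean as a line and the SD (n = 4) as a bar. Ugt8a, Mal, Cldn11 and Zbtb20 are highest at PWK 7, Il33 at PWK 14, and Gpr17, Draxin and Dpysl5 at PWK 1; for Fos, replicate 4 of PWK 7 (triangle) stands at 1033, above every other library.

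Of 17 genes of oligodendrocyte precursors and newly formed oligodendrocytes, 4 were lower, beside 0.425% of all genes tested, none was higher and 13 were not called. The median log2 fold change was -0.27, and 16 of the 17 estimates lay below 0. For 6 of the 17, PWK 14 lay wholly below PWK 7, beside 5.03% of all genes tested. Gpr17, a receptor that marks the premyelinating stage, went from 3065, 2873, 2573 and 2563 to 1597, 1812, 1771 and 1716 normalized counts (-0.68 ± 0.07, adjusted p = 0.00181), and had stood at 5771 to 7041 at PWK 1. The lineage factors Olig1 (-0.27 ± 0.04, adjusted p = 0.0217) and Olig2 (-0.38 ± 0.07, adjusted p = 0.0475) and the adhesion protein Tns3 (-0.35 ± 0.05, adjusted p = 0.0174) were lower too, with no overlap between ages. Enpp6, a choline phosphodiesterase of newly formed oligodendrocytes, had a larger estimate than these but a wider spread, with 385.2, 351.7, 410.6 and 532.0 at PWK 7 and 267.5, 271.5, 243.6 and 184.9 at PWK 14 (-0.79 ± 0.15, adjusted p = 0.0570). Pdgfra, the growth factor receptor of dividing precursors, had -0.21 ± 0.06 (adjusted p = 0.115). Only Gpr17 was called whichever library was left out. The list held 1 lower gene without PWK 14 replicate 1 and without PWK 7 replicate 2 or 3, 2 without PWK 7 replicate 1, 3 without PWK 14 replicate 2, 3 or 4, and 4 without PWK 7 replicate 4.

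Several lower DEGs outside these lists are known to be made by oligodendrocytes, and they are named here after their values were seen. Adamts4, a protease that cuts the proteoglycans of the extracellular matrix, was counted in the matrix list and went from 1182, 1067, 1192 and 1086 to 745.5, 721.1, 655.9 and 638.4 normalized counts (-0.71 ± 0.07, adjusted p = 0.00179). Gsn, the actin-severing protein gelsolin, went from 3326, 2914, 3303 and 3013 to 2061, 1704, 1743 and 2060 (-0.73 ± 0.08, adjusted p = 0.00227). For both, the highest library of PWK 14 was well under the lowest of PWK 7. Sema4d, a transmembrane semaphorin, changed by -0.49 ± 0.05 (adjusted p = 0.00322). The deacetylase gene Sirt2 (-0.30), the neuregulin receptor gene Erbb3 (-0.54), the glycolipid transfer protein gene Gltp (-0.32) and the ubiquitin ligase gene Rnf122 (-0.76) were lower with adjusted p of 0.0140, 0.0217, 0.0309 and 0.0148. All 4 lost the call without PWK 7 replicate 1, 2 or 3, with adjusted p of up to 0.116.

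Of 19 genes of immature neurons of the dentate gyrus, 4 were lower, beside 0.425% of all genes tested, none was higher and 15 were not called. For 9 of them PWK 14 lay wholly below PWK 7, beside 5.03% of all genes tested, and the median log2 fold change was -0.24. The 4 calls rested on single libraries: none was made without PWK 14 replicate 1 or 2 or without PWK 7 replicate 1, 2 or 3, 3 were made without PWK 14 replicate 3, 2 without PWK 14 replicate 4, and 4 without PWK 7 replicate 4. Dpysl5, a cytosolic protein of growing axons, went from 1570, 1372, 1364 and 1556 to 916.7, 975.9, 1126 and 1138 normalized counts (-0.50 ± 0.08, adjusted p = 0.0333). Draxin, a secreted axon guidance protein, went from 83.4, 94.4, 76.9 and 71.7 to 33.9, 36.2, 45.5 and 45.6 (-1.0 ± 0.17, adjusted p = 0.0382). The ages were separate in both, and PWK 1 levels were far above either, at 9155 to 13380 for Dpysl5 and 346.9 to 562.1 for Draxin. Sox4, a transcription factor of newborn neurons, changed by -0.40 ± 0.07 (adjusted p = 0.0417), and Dpysl3, a relative of Dpysl5, by -0.31 ± 0.05 (adjusted p = 0.0426).

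Dcx, the microtubule protein most used to mark newborn neurons, had normalized counts of 920.3, 965.4, 908.1 and 1030 at PWK 7 and 742.0, 825.7, 655.2 and 530.8 at PWK 14. The ages did not overlap, but the estimate of -0.49 ± 0.12 missed the threshold (adjusted p = 0.0992, against -0.37 and 0.0264 in heterozygotes), as did that of Igfbpl1, which marks the same stage (-0.87 ± 0.18, adjusted p = 0.0694). Of 14 proliferation genes, none was called, and the median was -0.29. Mki67, the antigen of dividing cells, went from 91.1 to 101.3 at PWK 7 to 48.5 to 67.5 at PWK 14 (-0.67 ± 0.15, adjusted p = 0.0866), while the libraries overlapped for Top2a, a topoisomerase of dividing cells (-0.88 ± 0.25, adjusted p = 0.137). Prox1, the factor that sets granule cell identity, had -0.30 ± 0.07 (adjusted p = 0.0914). With genes under 50 in any library left out, the proliferation median was -0.01.

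Besides Il33, 11 genes were higher at PWK 14, and none of them belonged to a gene list. Fasn, the fatty acid synthase, went from 8568, 8022, 8908 and 9288 to 10430, 11310, 10580 and 11760 normalized counts (0.34 ± 0.06, adjusted p = 0.0315). Car7, a carbonic anhydrase of neurons, went from 334.5, 334.9, 363.3 and 372.0 to 495.6, 507.2, 523.1 and 460.0 (0.50 ± 0.08, adjusted p = 0.0234). In both genes all PWK 14 libraries lay above all PWK 7 libraries.

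Tspoap1, which binds presynaptic calcium channels, rose by 0.33, Rasgrf1, a calcium-dependent activator of Ras, by 0.20, Uchl1, an abundant neuronal deubiquitinase, by 0.29, Celf3, a neuronal splicing factor, by 0.28 and Cdk9, the kinase that releases paused RNA polymerase, by 0.34 on the log2 scale, with adjusted p between 0.0324 and 0.0486. Palm3 (0.72 ± 0.13, adjusted p = 0.0459) and the keratin gene Krt9 (0.59 ± 0.10, adjusted p = 0.0316) had larger changes at lower levels, with Palm3 at 99.3 to 128.5 and then 159.8 to 200.7. AC116841.1 is a processed pseudogene that was listed at 0 in all 4 libraries of PWK 7 and at 24.1, 35.4, 26.0 and 21.1 at PWK 14, and at 0 to 29.5 at PWK 1. It shares 499 of its 561 sequences of 31 bases with Dst, a cytoskeletal linker gene, whose own log2 fold change was -0.06 ± 0.05 (adjusted p = 0.593), so its reads could not be assigned with certainty. The number of higher DEGs was 3 without PWK 14 replicate 2 or PWK 7 replicate 1, 2 without PWK 7 replicate 2 or 3, 5 without PWK 14 replicate 1 and 50 without PWK 7 replicate 4. Palm3 was called in 0 of the 8 fits that left out a library, and Krt9, Uchl1, Celf3, Cdk9 and Rasgrf1 in 1 each. Fasn was called in 2 of them, and Car7 and Tspoap1 in 3 each. Part of the Uchl1 sequence, 14.8% of its stretches of 31 bases, is shared with Uchl1os. With the trend of fold change with GC content and transcript length removed, Tspoap1, Uchl1, Palm3, Celf3 and Cdk9 were not called (adjusted p of 0.0567 to 0.0930). The median GC content of the higher DEGs was 56.4%, beside 50.4% for all genes tested.

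Among the other lower DEGs, Zbtb20, a transcription factor that sets the identity of hippocampal pyramidal neurons and is also made in astrocytes, went from 16510, 16230, 16650 and 18890 to 9953, 10870, 11740 and 7939 normalized counts (-0.77 ± 0.10, adjusted p = 0.0148). Lrrc7, a scaffold of the postsynaptic density, went from 2618, 2676, 2444 and 2916 to 1755, 1968, 1974 and 1636 (-0.54 ± 0.07, adjusted p = 0.0148). In both genes replicate 4 was the highest library of PWK 7 and replicate 4 the lowest of PWK 14, and the ages did not overlap. Slc7a11, the cystine and glutamate exchanger of astrocytes, went from 2044, 1922, 1940 and 1925 to 1607, 1443, 1380 and 1358 (-0.44 ± 0.06, adjusted p = 0.0148). Zbtb20 and Slc7a11 lost the call without PWK 7 replicate 1, 2 or 3 and Lrrc7 without PWK 7 replicate 1 or 2, with adjusted p of up to 0.0798.

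Several lower DEGs were gene models that lie within or beside longer genes. Snhg14, the long noncoding RNA of the imprinted region that runs across Ube3a, went from 9058, 8913, 9650 and 10840 to 6411, 7629, 5774 and 4824 (-0.66 ± 0.12, adjusted p = 0.0459), and shared 11.3% of its sequences of 31 bases with other genes, mostly Ube3a. Ube3a itself had -0.18 ± 0.06 (adjusted p = 0.20). The antisense RNA 9630013A20Rik, which overlaps Pcdh17, went from 114.1, 113.4, 116.7 and 121.6 to 46.5, 38.6, 45.8 and 44.7 (-1.39 ± 0.14, adjusted p = 0.00179), while Pcdh17, a protocadherin, had -0.15 ± 0.07 (adjusted p = 0.319). Gm48267, within Cadps, fell to between 3.53 and 8.97 from between 20.02 and 55.2 (adjusted p = 0.0249), and Gm38372, within Pcmtd1, had -1.31 ± 0.24 (adjusted p = 0.0473). Gm37111, which lies just downstream of Mobp, had -1.17 ± 0.19 (adjusted p = 0.0295), the direction of Mobp itself. How the counting treated strand and introns is not given in the sources used here, so reads of such models and of the genes around them cannot be told apart. Snhg14 was called in 1 of the 8 fits that left out a library, that without PWK 14 replicate 2, and Gm38372 and Gm37111 in 2 each.

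Single genes of other cell types were lower as well. Aplnr, the apelin receptor of endothelial cells, fell from 50.5, 41.4, 39.7 and 27.6 to 13.8, 5.69, 13.2 and 7.32 normalized counts (-1.94 ± 0.32, adjusted p = 0.0324), and Mcam, an adhesion protein of vessel walls, from 778.2 ± 72.7 to 554.4 ± 45.0 (mean ± SD, n = 4; adjusted p = 0.0442). Csf1r, the receptor on which microglia depend, fell from 3263, 3603, 3253 and 3253 to 2669, 2843, 2716 and 2390 (-0.33 ± 0.06, adjusted p = 0.0469). Aplnr and Csf1r showed no overlap between ages. Csf1r was the only microglial gene called of 22, beside 0.425% of all genes tested called lower. Hapln1, a link protein of the perineuronal net, changed by -0.56 ± 0.08 (adjusted p = 0.0153), and Ndnf, a marker of neurogliaform interneurons, by -0.67 ± 0.10 (adjusted p = 0.0234). Ntrk2, the receptor of BDNF, changed by -0.25 ± 0.04 (adjusted p = 0.0295), Creb1, a factor that acts downstream of it, by -0.36 ± 0.05 (adjusted p = 0.0225), and Fgf1, a growth factor, by -0.30 ± 0.05 (adjusted p = 0.0315). Each of these 8 genes lost the call without PWK 7 replicate 2 or 3, and Csf1r, Mcam and Fgf1 were called in 1 of the 8 such fits.

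Immediate early genes, which neurons transcribe within minutes of activity, were not called in any of 22 cases, though 19 had an estimate above 0 and the median log2 fold change was 0.41. Fos had normalized counts of 343.3, 378.4, 291.0 and 1033 at PWK 7 and 856.6, 981.5, 885.8 and 824.5 at PWK 14 (0.99 ± 0.32, adjusted p = 0.176). Arc, a synaptic protein made on activity, had 3860, 3821, 3191 and 7803 and then 6322, 7797, 7600 and 6738 (0.70 ± 0.22, adjusted p = 0.179). In both, replicate 4 of PWK 7 stood with the libraries of PWK 14 and the 3 other libraries of PWK 7 well below. Junb had the smallest p of the list (0.77 ± 0.19, adjusted p = 0.0997) and 2315 in that library against 1160 to 1215 in the 3 others, and Egr4 (0.88 ± 0.24) and Npas4 (0.58 ± 0.17) had a like order. Nr4a1, an orphan receptor gene, was the only member without overlap, with 1779, 1810, 1501 and 2867 and then 2904, 3075, 3055 and 2954 (0.63 ± 0.16, adjusted p = 0.102). Without PWK 7 replicate 4, 12 of the 22 were called higher, among 50 genes called higher in that fit. Fos then had 1.40 and an adjusted p of 0.000810, Arc 0.97 and 0.00136, and Junb 1.02 and 0.000111, and the median was 0.53. That library stood out by these same values, so these adjusted p are no separate evidence of a change with age. Without any other library none of the 22 was called. With all 48 libraries of the series in one fit, 5 of the 22 were called higher. Junb and Fos were among them (adjusted p of 0.0206 and 0.0426 by limma), and Arc was not (0.184). The summed level of the list was 25580 to 29640 in the 3 other libraries of PWK 7, 43960 in replicate 4, and 37800 to 43180 at PWK 14. The state of the mice before dissection is not in the labels, and its part in these values was not tested.

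Choroid plexus genes, which can come from tissue that adheres to the dissected hippocampus, differed widely between libraries of the same age. The summed level of the 20 genes was 88870, 95630, 123900 and 54730 at PWK 7 and 109600, 8721, 44670 and 177900 at PWK 14. Replicate 2 of PWK 14 held the least and replicate 4 the most, for Ttr, the carrier of thyroid hormone, 1783 and 111100. None of the list was called. Its median log2 fold change was -0.85, but 0.09 without PWK 14 replicate 2, -1.44 without PWK 14 replicate 4 and -0.71 to -1.22 without any other library. Within PWK 14, replicate 2 also had the highest Ugt8a (1326) and Mbp (76720), and replicate 4 the lowest (1093 and 64310). Other myelin genes had another order, with Cldn11, Mal and Mag lowest in replicate 3. The summed level of the 28 myelin genes was 284700, 260900, 293300 and 272000 at PWK 7. At PWK 14 it was 210200, 198200, 171700 and 184900. The 12 lower myelin genes were called without PWK 14 replicate 2 and also without replicate 4. The PWK 14 libraries left in either fit still differed widely in their choroid plexus level. These fits therefore cannot show the part of choroid plexus tissue in the myelin values, which was not tested. Col1a2, a collagen of meningeal fibroblasts, was 693.2, 293.8, 614.3 and 634.7 at PWK 14 against 856.1 to 1110 at PWK 7 (-0.89 ± 0.23, adjusted p = 0.11), and was called lower only when PWK 14 replicate 2 was left out.

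For the markers of other cells few or no genes were called, beside 0.0709% higher and 0.425% lower of all genes tested. At those shares lists this short would mostly hold no call, so the absence of calls says little about these cells. No gene was called among the lists of astrocytes (19 genes tested, median -0.13), endothelial cells (16, median -0.24), mural cells and fibroblasts (16, median -0.34), dentate granule cells (11, median -0.18), CA1 (9, median 0.06), CA2 (9, median 0.06) and CA3 pyramidal cells (8, median 0.04). The summed astrocyte level was 253500 to 258800 at PWK 7 and 224500 to 241900 at PWK 14, that of endothelial cells 16360 to 17140 and 14330 to 15490, and that of microglia 20420 to 21570 and 19160 to 19790, so all 3 sums were lower in every library of PWK 14. The part of these shifts in the DEGs was not tested. Glutamate receptors (24, median -0.04), GABA receptors (14, median -0.01) and ion channels (22, median -0.04) had medians near that of all genes, with no call.

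**Figure D4:**
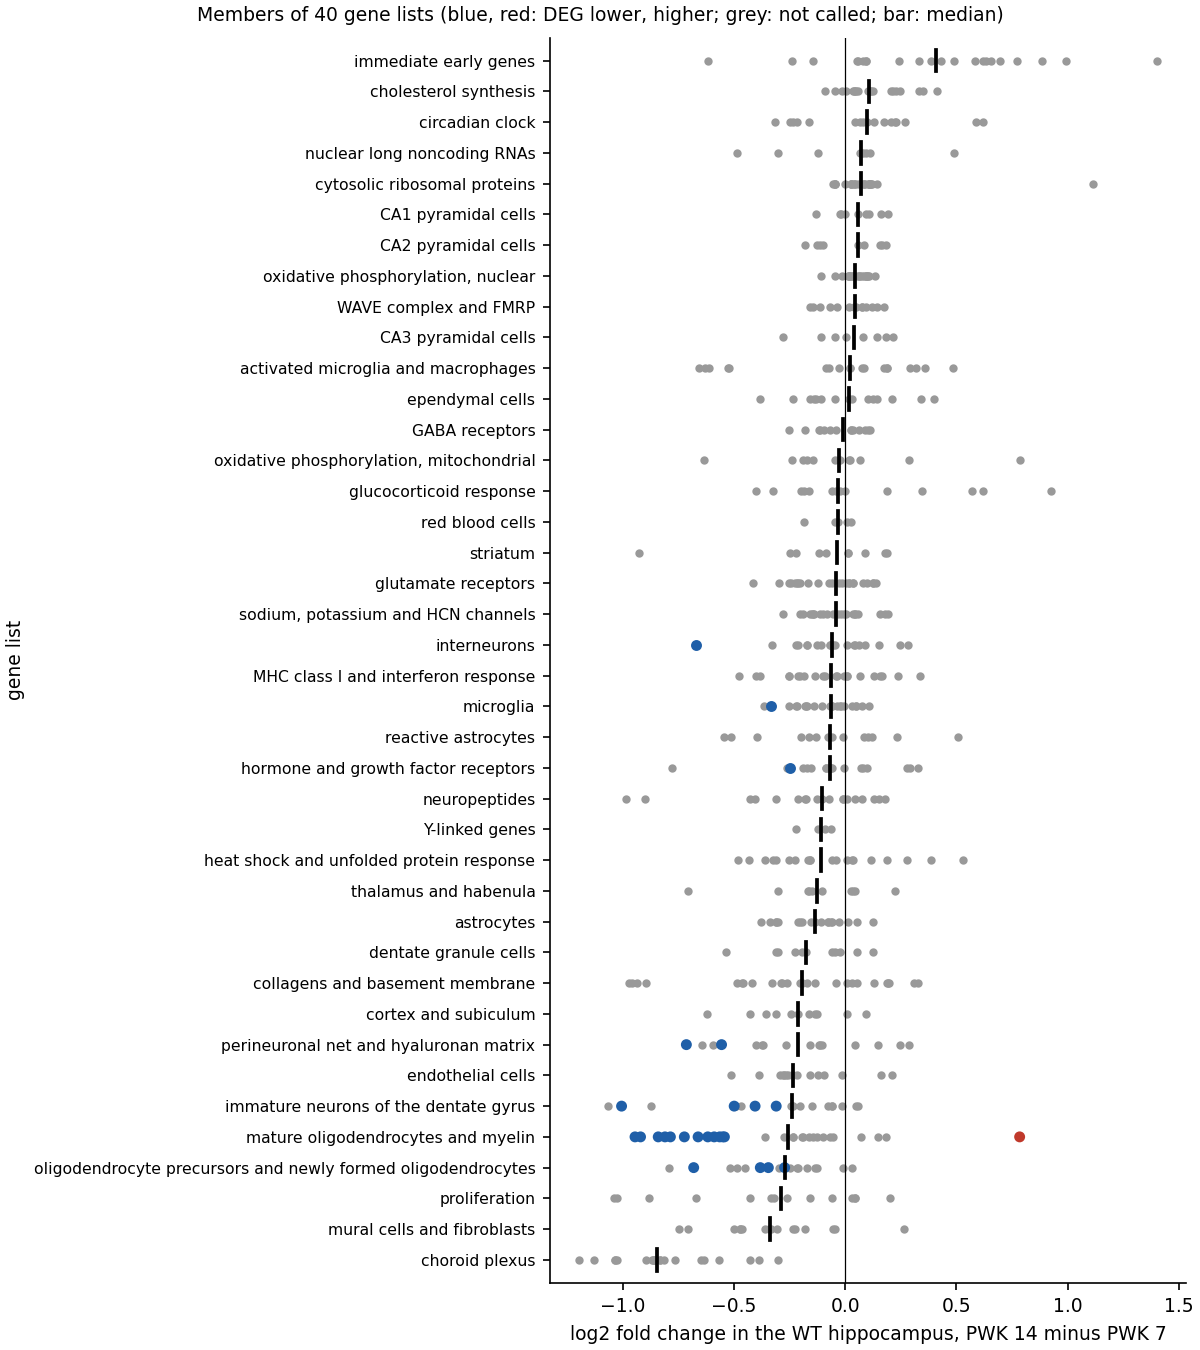
Log2 fold change between PWK 14 and PWK 7 in the WT hippocampus (horizontal axis) for each tested member of 40 gene lists (rows), with DEGs in blue (lower) or red (higher), other genes in grey and the median of each list as a bar. Calls gather in the mature oligodendrocyte list, with 12 lower and 1 higher, and no choroid plexus gene or immediate early gene is called although their medians are -0.85 (0.09 without PWK 14 replicate 2) and 0.41. The list members were chosen with earlier results of these data known.

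The same age step was next read in the Cyfip2 heterozygous hippocampus, whose libraries are not used in the WT comparison. There 20 of 16959 genes were higher (0.118%) and 58 lower (0.342%) at PWK 14. Across 16738 genes the log2 fold changes of both genotypes correlated by r = 0.466, a value across genes, which are not independent. Of the 84 WT DEGs, 83 had the same direction in heterozygotes and 30 were called there too, which is 35.7% of the WT DEGs and 38.5% of the heterozygous DEGs. Their median absolute log2 fold change was 0.50 in WT, where they were chosen, and 0.42 in heterozygous mice. Of all genes tested in both, 68.8% had the same direction. The labels name no collection or library batch. A technical difference between the ages could be shared by both genotypes and both regions. It cannot be told apart from age here and was not tested.

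Of the myelin list, 11 genes were lower and 1, Il33, higher in heterozygotes, with Ugt8a at -0.79, Cldn11 at -0.93, Mal at -0.94 and Il33 at 0.86 on the log2 scale (adjusted p of 0.0355, 0.00597, 0.00374 and 0.00374). AC116841.1 was called higher there too. By contrast, Slc7a11 had 0.01 in heterozygotes against -0.44 in WT, and was the DEG with the opposite sign. Rab7b, a small GTPase of late endosomes, had -0.50 against -1.34, and Car7 had 0.12 against 0.50. Neither these nor any other of 17473 genes passed the interaction of age and genotype by limma, with a smallest adjusted p of 0.669 and 625 genes at an unadjusted p under 0.05. The 5 genes with the smallest p were Gm49027, Plxna3, Soat1, Tdgf1 and Gm29253. The immediate early genes had a median of 0.41 in heterozygotes with none called higher and 1 lower.

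In the WT cortex, dissected from the same cohort, 217 of 16878 genes were higher (1.29%) and 436 lower (2.58%) at PWK 14. Of the 84 hippocampal DEGs, 75 had the same direction in the cortex and 40 were called there, which is 47.6% of the hippocampal and 6.13% of the cortical DEGs, and the log2 fold changes correlated by r = 0.254 across 16373 genes. Both regions were dissected from each mouse, so these are not independent samples, although the labels do not state that a replicate number marks the same mouse. Of the myelin list, 12 genes were lower and 3 higher, Il33, Apod and Ptgds, a prostaglandin synthase. Ugt8a had -0.88, Cldn11 -0.88 and Il33 0.83. The difference between the age steps of hippocampus and cortex was -0.06 for Ugt8a, -0.04 for Cldn11 and -0.04 for Il33, with adjusted p of 0.905 to 0.941. In all 3 comparisons 23 genes were called in the same direction, among them 9630013A20Rik, Adamts4, Sema4d, Sox4, Rnf122, Il33 and 11 of the 12 lower myelin genes.

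Between regions, 13 of 17643 genes (0.0737%) differed in their age step. Snhg14 had -0.66 in the hippocampus and 0.37 in the cortex, where it was a DEG in the opposite direction (difference -1.03, adjusted p = 0.0122). Slc7a11 had -0.44 and 0.22 (difference -0.66, adjusted p = 0.0122), Zbtb20 -0.77 and 0.05 (-0.81, adjusted p = 0.0284), and Lrrc7 -0.54 and 0.05 (-0.59, adjusted p = 0.0296). The last 3 were not called in the cortex. Conversely, Lsm11, a component of the machinery that trims histone mRNA, had 0.15 ± 0.06 in the hippocampus and -0.86 in the cortex (difference 1.01, adjusted p = 0.0122), Marcksl1, an actin-binding protein of growing neurites, -0.24 and -0.79 (0.56, adjusted p = 0.0223), and R3hdm2 0.06 and -0.40 (0.46, adjusted p = 0.0223). Dpysl5 had -0.50 and -0.04, and Dcx -0.49 and 0.36, differences that missed the threshold (adjusted p of 0.257 and 0.0877). With the replicate number of each age taken as the mouse and used as a block, 2 genes were called, Snhg14 (adjusted p = 0.0150) and Marcksl1 (adjusted p = 0.0495). The 13 calls became 3 without PWK 7 hippocampus replicate 2 or 3, PWK 14 cortex replicate 3 or PWK 7 cortex replicate 1 or 2, 4 without PWK 7 hippocampus replicate 1 or PWK 14 cortex replicate 2, and 21 to 39 without PWK 14 hippocampus replicate 1, 2 or 4, PWK 14 cortex replicate 4 or PWK 7 cortex replicate 4.

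**Figure D5:**
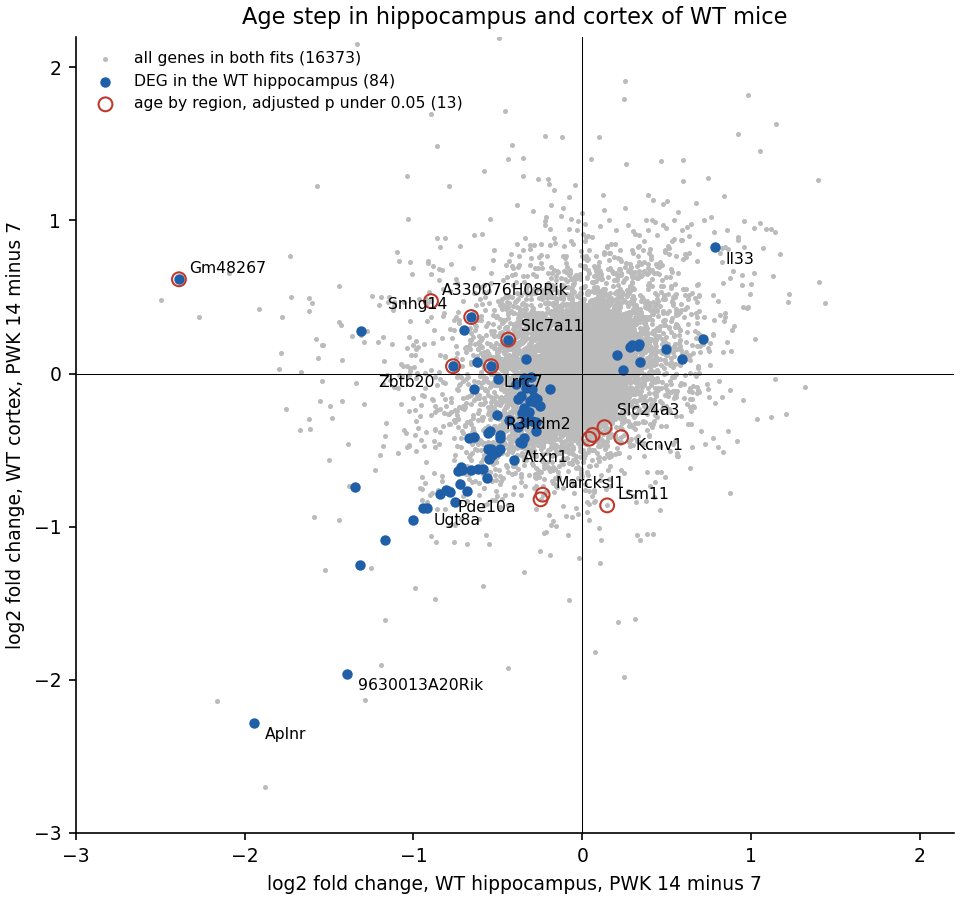
Log2 fold change between PWK 14 and PWK 7 in the WT cortex (vertical axis) against that in the WT hippocampus (horizontal axis) for 16373 genes in both fits (grey), with the 84 hippocampal DEGs in blue and the 13 genes whose age step differed between regions ringed in red. Most blue points lie in the lower left, Snhg14, Slc7a11, Zbtb20 and Lrrc7 lie left of 0 and above 0, and 11 genes fall outside the axes.

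Cyfip2, whose heterozygous loss the series was made to study, did not pass the test with age in the WT hippocampus. Its normalized counts were 25230, 25740, 24340 and 25860 at PWK 7 and 25640, 27950, 29850 and 24720 at PWK 14 (0.09 ± 0.06, adjusted p = 0.475). The ages overlapped, as they did for its paralog Cyfip1 (0.08 ± 0.06, adjusted p = 0.552). Of the 14 genes of the WAVE complex and the FMRP family, none was called, and the median was 0.04.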

How the data were processed

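Bulk RNA-seq of hippocampus was analysed as normalized counts. The authors mapped reads to GRCm38 with Salmon, imported gene estimates with tximport and normalized them with DESeq2, and the deposited values are a signal on a linear scale, not whole numbers, so no test of counts was run. The submitters' processing notes name Salmon 0.11.2, R 3.6.0 and DESeq2 1.19.11. The annotation release is not given in the sources used here. GENCODE vM21 matched 18414 identifiers and left 14 unmatched.

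Genes with at least 10 in 4 of the 8 libraries were tested with limma (version 3.58.1, R 4.3.3; mean-variance trend, two-sided) on log2(value + 1), with Benjamini-Hochberg adjustment, and fold changes of low genes are understated on that scale. Interactions were contrasts of 4 group means in 16 libraries. The script was tested on simulated data. Named were the 12 higher and 12 lower DEGs with the smallest p, the 5 of each with the largest change, up to 4 genes per list and up to 5 per interaction; other genes named were chosen after their values were seen, and some genes are not reported here. The 40 lists and their members were chosen with earlier results of these data known. Alternatives were other scalings, filters, pseudocounts, larger fits, blocks and leaving out libraries.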

Additional observations from a re-analysis of the deposited data

Results flagged for a closer look

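Within groups of 4 libraries, a value was set apart where its gap to the nearest library, as a share of the range of the group, exceeded Dixon's critical value at the 95% level. This was tested for 174 pairs of gene and age and 12 of list and age, of which chance alone sets apart about 1 in 20, and 14 gene values were found. In PWK 7 replicate 4 these were the immediate early genes Junb (2315), Egr4 (901.4), Fos (1033) and Arc (7803), all above the others, and Zbtb20 (18890) and R3hdm2 (4879). In PWK 7 replicate 1 they were Gm37111 (111.3), Slc7a11 (2044) and Cyfip1 (4312), in replicate 2 Csf1r (3603) and in replicate 3 Atxn1 (2176, below the others). At PWK 14 they were Ermn (1353) and Olig2 (569.8), low in replicate 4, and Igfbpl1 (100.3), high in replicate 3.

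The age step differed between hippocampus and cortex of WT mice by a test of the interaction for 13 genes. The difference on the log2 scale, hippocampus minus cortex, was -1.03 for Snhg14, -0.66 for Slc7a11, -3.0 for Gm48267, -0.81 for Zbtb20, -1.37 for A330076H08Rik and -0.59 for Lrrc7. It was 1.01 for Lsm11, 0.56 for Marcksl1, 0.46 for R3hdm2, 0.47 for Atxn1, 0.48 for Slc24a3, 0.65 for Kcnv1 and 0.57 for Pde10a.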

How the results depend on the processing

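The 84 WT DEGs numbered 82 with median-of-ratios rescaling, 100 with quantile normalization, 77 without a filter, 98 with at least 50 in every library, 82 and 94 with pseudocounts of 0.1 and 10, 87 with robust variances and 73 with GC and length trends removed. Array weights gave 112 (20 higher, 92 lower). A fit of 16 hippocampal libraries gave 321 (90 higher, 231 lower), and of all 48 gave 825 (322 and 503), of which 76 and 70 were among the 84. The replicate block, whose numbers name different mice (correlations of -0.0760 to -0.0280 between same numbers), gave 11 (1 and 10). Of the 28 myelin genes, 12 were lower in the main fit, 5 with all 48 libraries and 6 with the replicate block. With all 48, Mal, Mobp, Mbp, Mag and Mog were among those not called (adjusted p of 0.0559 to 0.199 by limma). Other lists gained calls in that fit. The oligodendrocyte precursor list had 7 lower genes against 4 in the main fit, and the proliferation list 3 against 0. The immature neuron list had 3 against 4. With the replicate block, Mbp (0.0761), Mag (0.0576) and Il33 (0.0857) were not called. Leaving out a library gave 16 to 111 (2 to 50 higher, 14 to 70 lower).

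In heterozygotes, 127 were called with quantile normalization, 405 with 48 libraries and 10 to 261 with a library left out (261 without PWK 7 replicate 4). In the cortex, 1346 were called with 48 libraries, 319 with the replicate block and 65 to 1012 with a library left out. For age and genotype, 48 libraries gave 1 and leaving out a library 0 to 1 (1 without WT PWK 14 replicate 4). For age and region, 48 libraries gave 99, the replicate block of the mouse 2 and leaving out a library 3 to 39. The causes were not tested. No called value of a named gene reversed. Of the fold changes of named genes over all settings, 1432 kept their side of the threshold, 282 lost a call and 29 gained one. Of the list medians, 791 stayed within the spread between replicates and 9 moved beyond it. With 4 mice a group and depth known roughly, small changes were below detection.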
